A study of Mus musculus with 12 samples.

Results

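The 10 genes described here carry the response of the mouse cochlea to glucocorticoids and mineralocorticoids: the receptors Nr3c1 and Nr3c2, the enzymes Hsd11b1 and Hsd11b2, the induced genes Fkbp5, Tsc22d3 and Sgk1, and the epithelial sodium channel subunits Scnn1a, Scnn1b and Scnn1g. They were chosen by name, and every non-control probe whose gene name equals one of the 10 was used. All 10 were on the array, with 83 of the 165984 probes and among 19505 genes. Gene expression was measured on 12 single-color exon arrays, 4 for the apical turn, 4 for the middle turn and 4 for the basal turn of the cochlea. All samples came from male C57BL/6 mice aged 6 weeks, killed under ketamine and pentobarbital anesthesia, and 25 ng of total RNA was labeled per array. Each piece of tissue held the lateral wall (stria vascularis, spiral ligament and spiral prominence) with the organ of Corti and, by the study's methods, the spiral ganglion neurons. The study asks how gene expression differs along the cochlear turns. The labels name no hormone, drug or noise treatment. The 4 arrays of each turn shared 1 slide, and no slide held a second turn, so turn and slide cannot be told apart. In such mixed tissue, fewer cells of a type and less RNA per cell cannot be told apart either.

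Glucocorticoids, in mice mainly corticosterone, enter cells and bind the glucocorticoid receptor Nr3c1, which moves to the nucleus and acts on genes that carry its response element. The mineralocorticoid receptor Nr3c2 binds aldosterone but also corticosterone, and Hsd11b2 protects it by inactivating corticosterone, whereas Hsd11b1 regenerates the active hormone inside cells. In the cochlea these receptors are known from the lateral wall and the spiral ganglion, where the stria vascularis secretes the potassium-rich endolymph and sodium channels take sodium back up, and glucocorticoids are a common treatment of sudden hearing loss.

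Signals are given below in scaled fluorescence units: the mean over a gene's probes on the log2 scale, taken back to the linear scale, after each array was brought to the same 75th percentile. Differences between turns are differences of mean log2 signals, tested with limma over all 12 arrays, and a gene is called when its Benjamini-Hochberg adjusted p over the 19505 genes is under 0.05. The spread between replicate arrays, as the median SD over genes, was 0.106 log2 units for the apical arrays, 0.126 for the middle arrays and 0.115 for the basal arrays. Between 77.4% and 81.4% of the probe spots were well above background on an array. Of the 83 member probes, 71 were well above background on all 12 arrays and 3 on none. Levels of different genes cannot be set against each other, since each probe has its own brightness.

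The turns differed in marker genes of several cell types. Summed signals of hair cell markers ran from 13249 to 17567 on the apical arrays and from 2845 to 5235 on the basal arrays, and 8 of 8 of these markers were called higher in the apex. Neuron markers ran from 25097 to 32674 in the apex and from 4699 to 20651 in the base, with 7 of 8 called higher in the apex. Spiral ligament fibrocyte markers went the other way, from 246630 to 273761 on the apical arrays, from 342465 to 385832 on the middle arrays and from 487243 to 553929 on the basal arrays, with 4 of 5 called higher in the base and 1 in the apex. Of the stria vascularis markers, 5 of 6 of marginal cells and 6 of 7 of intermediate cells and melanocytes were called higher in the base. Summed signals ran from 17806 to 19597 in the apex and from 25095 to 28711 in the base for marginal cells, and from 37414 to 43619 and from 57917 to 78253 for intermediate cells and melanocytes. Macrophage markers were called higher in the base for 5 of 6, with sums from 2098 to 2657 in the apex and from 2965 to 3765 in the base. Every matched marker of these lists had a probe well above background.

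Over the 3 turns, 3 of the 10 genes differed by limma's F test, the enzyme Hsd11b1, the receptor Nr3c2 and the kinase Sgk1, against 38.6% of all genes. None of the 10 reached turn means 2-fold apart together with that test, against 4.69% of all genes. Between apex and base, the same 3 genes were called, all higher in the base, where 39.2% of all genes were called, 21.6% higher in the base and 17.6% higher in the apex. Between the middle turn and the base, these 3 were again higher in the base, against 9.21% of all genes with that direction, 11.7% with the other and 20.9% in all. Between apex and middle turn, only Nr3c2 was called, higher in the apex, against 4.42% of all genes with that direction, 7.59% with the other and 12% in all. The median difference of the 10 genes was 0.10 log2 units for apex minus base, 0.14 for apex minus middle turn and -0.14 for middle turn minus base, and that of all genes was -0.04, -0.07 and 0.04. These 3 comparisons share arrays. Groups of 4 arrays without overlap were found for 3 of the 10 genes with the base above the apex (21.4% of all genes), 3 with the base above the middle turn (11.6%) and 2, Nr3c2 and Scnn1b, with the apex above the middle turn (7.31%).

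**Figure D1:**
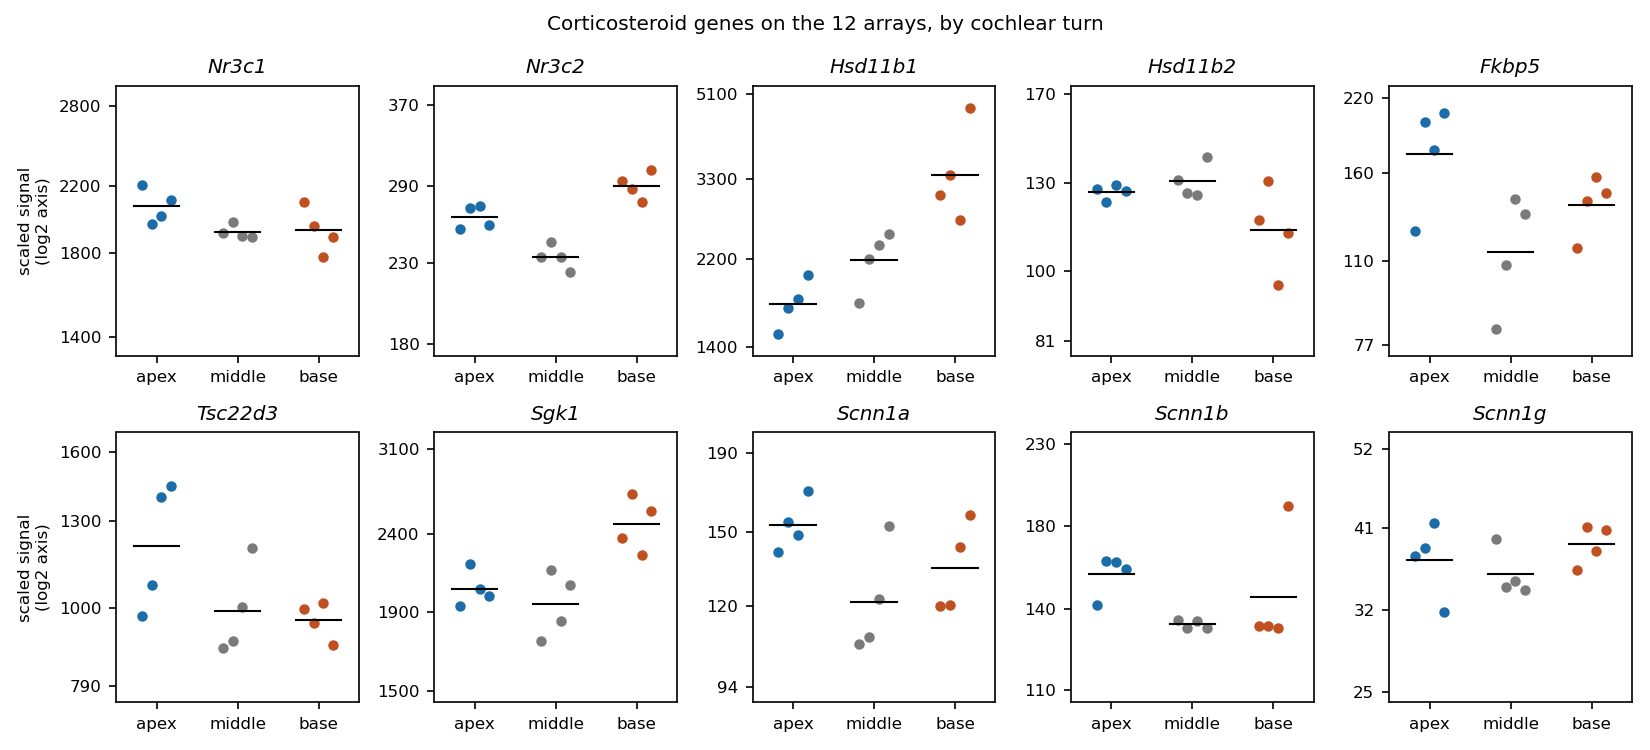
Scaled signal of each of the 10 genes on every array (points, log2 axis with its own range in each panel) by turn, with the mean log2 signal of the 4 arrays as a line. The basal arrays lie above all others for Hsd11b1, Sgk1 and Nr3c2, the middle arrays lie below all others for Nr3c2, and a single basal array of Scnn1b stands at 191 above the other 3.

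The glucocorticoid receptor Nr3c1 was bright in every turn and was not called in any comparison. Its signal was 2209, 1961, 2010 and 2107 on the apical arrays 1 to 4, 1912, 1977, 1892 and 1890 on the middle arrays, and 2097, 1953, 1777 and 1889 on the basal arrays. The 3 turns overlapped. The means were 2072 ± 110, 1918 ± 40.5 and 1929 ± 134 (SD, n = 4 each) from apex to base. Apex minus base was 0.10 ± 0.0589 log2 units (SE), with an interval from -0.03 to 0.23 and a limma adjusted p of 0.199. This value depended on the scaling: it was 0.22 under quantile normalization (adjusted p = 0.00856) and -0.31 with scaling to the spike-in probes (adjusted p = 0.00907). The 8 Nr3c1 probes lie on chromosome 18, minus strand, between 39571641 and 39645782 (mm9).

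The mineralocorticoid receptor Nr3c2 was lowest in the middle turn and highest in the base. Its signal was 255, 271, 272 and 258 on the apical arrays, 234, 245, 234 and 224 on the middle arrays, and 294, 287, 276 and 304 on the basal arrays. No array of one turn lay within the range of another turn. The means were 264 ± 9.21, 234 ± 8.82 and 290.4 ± 12.02 (SD, n = 4 each) in apex, middle turn and base. The base exceeded the middle turn by 1.24-fold (middle minus base -0.31 ± 0.0494 log2 units, limma adjusted p = 0.00199), and this call was kept in each of 14 other settings and of 12 fits with 1 array left out. The smaller steps, apex minus base at -0.14 (adjusted p = 0.0473) and apex minus middle turn at 0.17 (adjusted p = 0.0450), stood close to the threshold. Both calls were lost with only the arrays of the turns compared (adjusted p = 0.0750 and 0.0726), and apex minus middle turn was 0.0134 with scaling to the spike-in probes. With 1 array left out, the first kept its call in 3 of 12 fits and the second in 2 of 12, while the differences stayed between -0.16 and -0.11 and between 0.15 and 0.20. An order with all 4 middle arrays below the 8 others, picked out here after the values were seen, was found in 76 genes or 0.39% of all genes.

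The 8 Nr3c2 probes lie on chromosome 8, plus strand, between 79433795 and 79766429 (mm9). All 8 were lowest in the middle turn and 7 of 8 were highest in the base, so the order did not rest on a single probe. The probe with the largest turn difference, at chr8:79734614-79734673 (mm9, plus strand), had mean signals of 187, 160 and 219.5 from apex to base. It is shown, 5′ to 3′ and with nothing in capitals, as the stretch of the transcript in which the receptor's turn difference was read most strongly.
Nr3c2 probe: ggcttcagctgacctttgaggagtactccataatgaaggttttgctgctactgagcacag
Of the genes whose pattern over the 12 arrays was most like that of Nr3c2, Prrx1, Slc16a11, C630004H02Rik and Pik3r1 had Pearson correlations of 0.947, 0.945, 0.931 and 0.918 across the 12 arrays. They were among the 5 closest of 16009 genes with a probe above background on all arrays. The 12 arrays share turns, slides and scaling, and the correlations are given as a description.

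The enzyme that regenerates active glucocorticoid, Hsd11b1, had the largest difference of the 10 genes and rose from apex to base. Its signal was 1498, 1710, 1789 and 2027 on the apical arrays, 1749, 2201, 2365 and 2498 on the middle arrays, and 3042, 3378, 2680 and 4750 on the basal arrays. All basal arrays lay above all 8 others, and the apical and middle arrays overlapped. The means were 1756 ± 218, 2203 ± 326 and 3463 ± 904 (SD, n = 4 each). The base exceeded the apex by 1.94-fold (apex minus base -0.95 ± 0.172 log2 units, interval -1.33 to -0.58, limma adjusted p = 0.00121). It exceeded the middle turn by 1.55-fold (middle minus base -0.63, adjusted p = 0.0239), and apex minus middle turn was -0.32 (adjusted p = 0.218). Basal array 4 was the brightest, and without it apex minus base was -0.79 (adjusted p = 0.00191). The apex and base call was kept in all 12 fits with 1 array left out, whereas the middle turn and base call was lost without middle array 1 (adjusted p = 0.0719), without basal array 2 (adjusted p = 0.0573) and with only the arrays compared (adjusted p = 0.0551). Fibrocyte, stria vascularis and macrophage markers were higher in the base too, with the summed signals given above, and their part in the Hsd11b1 difference was not tested.

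The 6 Hsd11b1 probes lie on chromosome 1, minus strand, between 195048169 and 195068428 (mm9). All 6 were above background on every array and highest in the base, with the base between 1.74-fold and 2.15-fold above the apex. In the main fit none of the 6 passed the test against the other probes of the gene, described further on. In other settings 2 of them passed it. The probe at transcript base 264 did so under quantile normalization (limma's F test adjusted p = 0.0434). The probe at transcript base 152 did so with normexp (adjusted p = 0.0274) and with 16 added to each signal (adjusted p = 0.0463), among others. The probe with the largest difference, at chr1:195067545-195067604 (mm9, minus strand), had mean signals of 995, 1314 and 2137 in apex, middle turn and base, and is shown for that reason.
Hsd11b1 probe: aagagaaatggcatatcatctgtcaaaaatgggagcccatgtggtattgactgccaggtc

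The inactivating enzyme Hsd11b2 was not called between turns, but its probes disagreed. Its signal was 128, 123, 129 and 127 on the apical arrays, 131, 126, 126 and 141 on the middle arrays, and 116, 131, 95.7 and 112 on the basal arrays. The turns overlapped, with the lowest value in basal array 3. Apex minus base was 0.17 (interval -0.02 to 0.35, limma adjusted p = 0.144), and middle turn minus base was 0.21 (adjusted p = 0.0953). Without basal array 2 both passed, at 0.24 (adjusted p = 0.0310) and 0.28 (adjusted p = 0.0330). In the other 11 of the 12 fits with 1 array left out, neither passed. The gene has 5 probes on chromosome 8, plus strand, between 108042970 and 108047875 (mm9), and 1 of them was not well above background on any array. The probe nearest the 3′ end had mean signals of 133, 111 and 65.7 in apex, middle turn and base, 2.02-fold brighter in the apical than in the basal turn. Relative to the other probes of the gene its apex minus base was 1.058 log2 units (adjusted p = 0.0439 by limma's F test over the 3 turns), and that of the probe at transcript base 690 was negative (-0.39, F test adjusted p = 0.0142). With 1 array left out, the first kept its call in 2 of 12 fits and the second in 12 of 12, and the first also lost it under quantile normalization. The gene's value therefore depended on how probes were combined: with the median of the probes, apex minus base was 0.85 (adjusted p = 0.00378), and with the log2 of the mean signal it was -0.04.

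**Figure D2:**
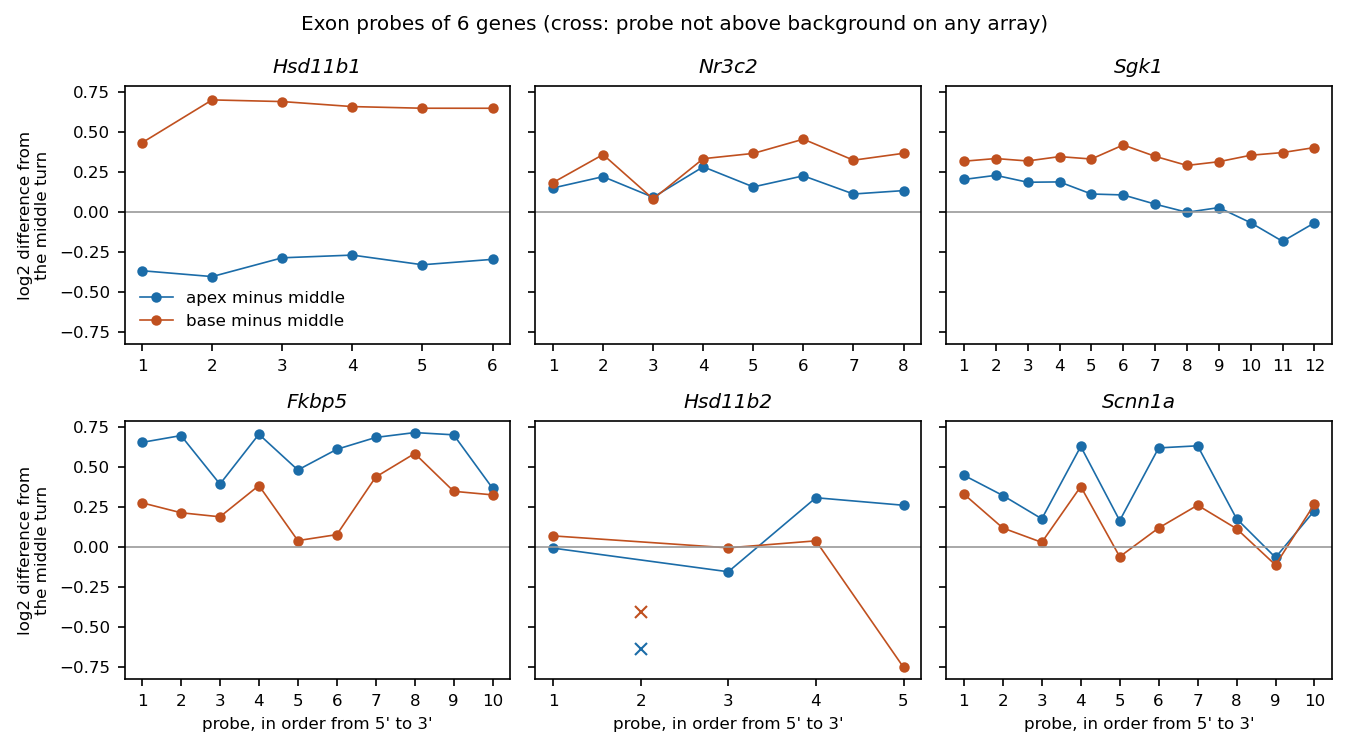
Difference of the apex (blue) and of the base (orange) from the middle turn in mean log2 signal for each probe of 6 genes, in order along the transcript, with crosses for a probe not above background on any array. The 6 Hsd11b1 probes keep one order, base above middle above apex, the apical values of Sgk1 fall along the transcript, and the last Hsd11b2 probe parts from the others.

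Among the induced genes, the kinase Sgk1, which keeps sodium channels at the cell surface and is a target of both receptors, was higher in the base. Its signal was 1934, 2192, 2033 and 1993 on the apical arrays, 1739, 2154, 1848 and 2062 on the middle arrays, and 2374, 2711, 2254 and 2575 on the basal arrays. All basal arrays lay above all 8 others. The base exceeded the apex by 1.21-fold (apex minus base -0.28 ± 0.0816 log2 units, limma adjusted p = 0.0178) and the middle turn by 1.27-fold (middle minus base -0.35, adjusted p = 0.0129), and apex minus middle turn was 0.07 (adjusted p = 0.611). The call between middle turn and base was kept in each of 14 other settings and of 12 fits with 1 array left out, and that between apex and base was lost under quantile normalization (-0.14, adjusted p = 0.158), with the median of probes (-0.21, adjusted p = 0.119), without apical array 1 (-0.26, adjusted p = 0.0510) and without basal array 2 (-0.24, adjusted p = 0.0563). The part of the fibrocyte and stria vascularis markers, which were higher in the base as well, was not tested.

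The 12 Sgk1 probes lie on chromosome 10, plus strand, between 21714572 and 21718702 (mm9), and all 12 were highest in the base. The size of the difference varied along the transcript. Apex minus base was -0.10 log2 units at the probe of transcript base 826 and -0.55 at the probe of base 1802, which was lower than the rest of the gene by 0.30 (relative value -0.30, adjusted p = 0.0186 by limma's F test over the 3 turns). That probe, at chr10:21717996-21718055 (mm9, plus strand), had mean signals of 787, 893 and 1156 in apex, middle turn and base, and is shown because it departed from the others.
Sgk1 probe: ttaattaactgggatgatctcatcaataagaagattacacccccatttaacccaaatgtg

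The full glucocorticoid response element, searched as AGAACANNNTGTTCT, which reads the same on both strands, was present in the promoter window of 1 of the 7 member genes with a window in the RefSeq table used, Sgk1. RefSeq windows reach from 250 bases before to 50 bases after each start site (GRCm38.p6), and the 7 genes have 14 such windows. The element stood in 1 of the 14, and in 3 of 32851 windows of all genes, or 0.00913%. The part motif AGAACA or TGTTCT, which every full element also holds, was found in 4 of the 14 windows and in 19.0% of all windows. Those 4 windows belong to Sgk1 and Tsc22d3 only, and Sgk1 alone has 6 of the 14 windows. None of the 78 windows of 66 listed pathway genes held the full element. With so few matches among all windows, this count cannot show that these genes lack a response element. Looser forms of the full element and sites outside the windows were not searched. The Sgk1 window is shown in part, at chr10:21993641-21993775 (GRCm38.p6, plus strand), 5′ to 3′ with the element in capitals, because Sgk1 was both a called member and the 1 with a match.
Sgk1 promoter fragment: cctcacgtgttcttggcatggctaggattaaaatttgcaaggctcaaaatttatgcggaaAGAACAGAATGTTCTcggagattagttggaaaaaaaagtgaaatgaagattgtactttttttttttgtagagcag
The element lies from 189 to 175 bases before that start site, which is 1 of 6 listed for the gene. The match is one of letters, and receptor binding was not measured. Nr3c1, Hsd11b2 and Scnn1a were not searched, since the window table used holds no window under their names.

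Fkbp5, a cochaperone that lowers the receptor's affinity for hormone and rises when the receptor is active, spread widely within turns, with an SD of 0.33, 0.36 and 0.19 log2 units in apex, middle turn and base. Its signal was 125, 198.5, 176 and 207 on the apical arrays, 82.3, 108, 143 and 134 on the middle arrays, and 116, 142, 157 and 147 on the basal arrays. The turns overlapped, and sample 1 was the lowest of each turn. The means were 177 ± 36.7, 117 ± 27.6 and 141 ± 17.3 (SD, n = 4 each). Apex minus middle turn was the largest of its differences at 0.60 ± 0.196 log2 units, or 1.52-fold, and missed the threshold (limma adjusted p = 0.0687, F test 0.0760). It passed without apical array 1 (0.76, adjusted p = 0.0361), without middle array 3 (0.71) and with the sample number added to limma's model (adjusted p = 0.00957). With the sample number added, apex minus base passed as well (adjusted p = 0.0342). All 10 Fkbp5 probes, on chromosome 17, minus strand, between 28536060 and 28577932 (mm9), were highest in the apex and lowest in the middle turn.

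Tsc22d3, which encodes the glucocorticoid-induced leucine zipper protein, had its brightest arrays in the apex. Its signal was 975, 1070, 1396 and 1441 on the apical arrays, 885, 907, 1002 and 1196 on the middle arrays, and 996, 955, 1017 and 895 on the basal arrays. Apical arrays 3 and 4 stood above all others, and apical array 1 lay within the range of both other turns. Apex minus base was 0.32 (interval 0.03 to 0.61, limma adjusted p = 0.0825). It passed the threshold with the log2 of the mean linear signal (0.46, adjusted p = 0.00644) and without apical array 1 (0.42). All 3 probes, on chromosome X, minus strand, between 137074094 and 137132726 (mm9), were highest in the apex.

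The 3 sodium channel subunits were not called in any comparison. Scnn1a had signals of 141, 155, 149 and 170 on the apical arrays, 107.1, 109, 123 and 153 on the middle arrays, and 120.2, 120.5, 143 and 158 on the basal arrays. The turns overlapped, and sample 4 was the highest of each turn. Apex minus middle turn was 0.33 (interval 0.06 to 0.61, limma adjusted p = 0.0994), and without middle array 4 it was 0.44 and passed. It also passed with the sample number added to limma's model (adjusted p = 0.0143). Its 10 probes lie on chromosome 6, plus strand, between 125272281 and 125294540 (mm9), and 8 of them were highest in the apex. The probe at transcript base 2194 departed from the rest of the gene (apex minus middle turn relative to the other probes -0.44, F test over the 3 turns adjusted p = 0.0364), a call kept in 3 of 12 fits with 1 array left out.

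Scnn1b had signals of 142, 162, 161 and 158 on the apical arrays, 136, 132, 135 and 132 on the middle arrays, and 133, 133, 132 and 191 on the basal arrays. The apical arrays lay above all middle arrays, and basal array 4 lay above every array of the other turns. Apex minus base was 0.10 with all arrays (interval -0.14 to 0.33, limma adjusted p = 0.547). Without basal array 4 it was 0.23 (adjusted p = 0.00923), apex minus middle turn was 0.22 (adjusted p = 0.0236) and middle turn minus base was 0.01, so that this 1 array decided the call. Its 11 probes lie on chromosome 7, plus strand, between 129042869 and 129061643 (mm9).

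Scnn1g was dim. Its signal was 37.7, 38.6, 41.6 and 31.9 on the apical arrays, 39.7, 34.3, 35.0 and 34.0 on the middle arrays, and 36.1, 41.1, 38.3 and 40.8 on the basal arrays. The turns overlapped, and only 3 of its 10 probes were well above background on all 12 arrays and 2 on none. Apex minus base was -0.07 (interval -0.25 to 0.12, limma adjusted p = 0.611) and -0.28 under quantile normalization (adjusted p = 0.0220). The probes lie on chromosome 7, plus strand, between 128881427 and 128911991 (mm9).

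**Figure D3:**
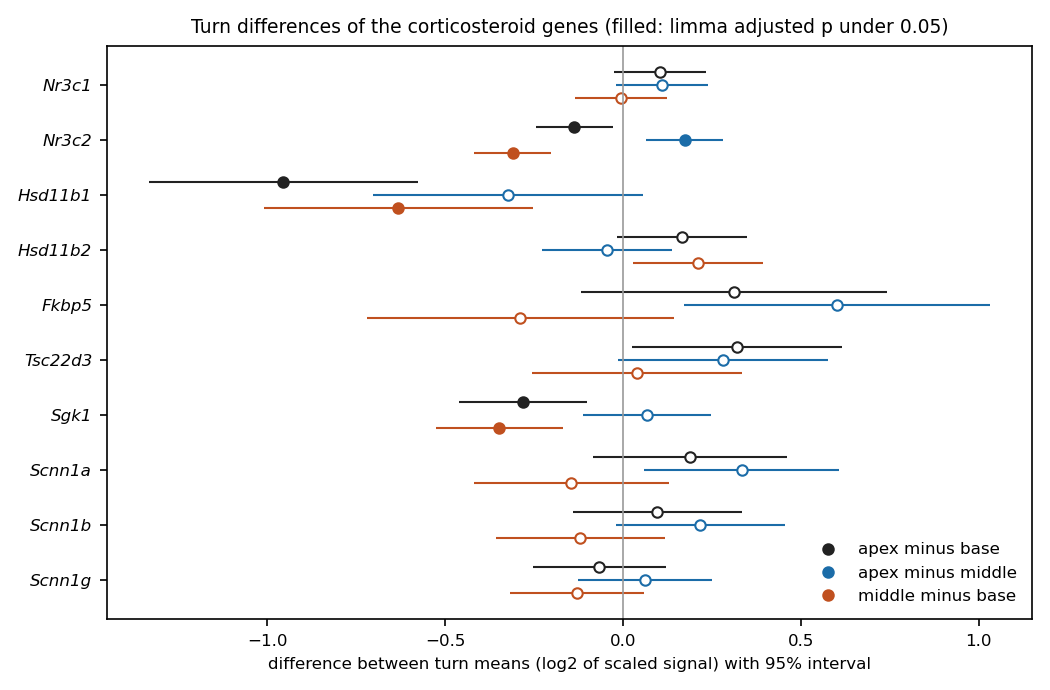
Difference between turn means in log2 scaled signal for the 10 genes, with the 95% interval of limma's fit as a bar, for apex minus base (black), apex minus middle turn (blue) and middle turn minus base (orange), filled where the adjusted p was under 0.05. Of the 30 differences 7 are filled, and that of Hsd11b1 between apex and base, at -0.95, lies farthest from 0.

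Probes of 1 gene can differ where transcripts differ. Each probe was therefore compared with the mean of the other probes of its gene, and 6 of the 83 member probes passed limma's F test over the turns, against 6.29% of 159900 probes tested. They were 2 probes of Hsd11b2 and 1 each of Nr3c1, Fkbp5, Sgk1 and Scnn1a. In Nr3c1, Fkbp5 and Hsd11b2 a called probe was the one nearest the 3′ end, and the source of these departures was not tested. For Nr3c1 the probe at transcript base 4827 was lower in the apex relative to the others (apex minus base -0.36, F test adjusted p = 0.00844). It kept its call in 12 of 12 fits with 1 array left out but lost it under quantile normalization. For Fkbp5 the probe at base 3425 had -0.30 (F test adjusted p = 0.0495) and kept its call in 0 of these 12 fits. With 1 array left out, the count ran from 2 to 7.

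The samples of each turn are numbered 1 to 4 in the labels, so it was asked whether same-numbered samples departed together. In a model with the turn, no member passed limma's F test of the sample number after adjustment, against 0.138% of all genes. At an unadjusted p under 0.05, 4 members passed, against 14.2% of all genes: Fkbp5 (unadjusted p = 0.00274), Scnn1a (0.00362), Sgk1 (0.0174) and Hsd11b1 (0.0226), with adjusted p of 0.233, 0.241, 0.304 and 0.319. Sample 1 was the lowest of each turn for Fkbp5 and Scnn1a. Sample 4 was the highest of each turn for Scnn1a and Hsd11b1, and sample 2 was the highest of each turn for Sgk1. The study took the 3 turns from 4 mice, and the labels do not say whether same-numbered samples came from 1 mouse.

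Beyond the 10 genes, 91 of 92 further genes of the pathway in 4 lists were on the array (Klhl3 was not matched). Of these 91, 28 were called by the F test, 9 were called higher in the apex against the base and 15 higher in the base, and 8 had no probe above background. Their median apex minus base was -0.04 log2 units, against -0.04 over all genes, and 38.6% of all genes were called by that test. Among the 15 genes of the receptor complex and its coregulators, 6 were called by the F test and the median apex minus base was 0.02. The coactivators Ncoa1 and Ncoa2, which bind the active receptor, were higher in the apex, with apex minus base at 0.45 (limma adjusted p = 9.8e-05) and 0.26 (adjusted p = 0.00967). The coactivator Ncoa3 was higher in the base against the middle turn (middle minus base -0.20, limma adjusted p = 0.0200). Its apex minus base was -0.14 and lay near the threshold (adjusted p = 0.0575), and it passed under, among others, quantile normalization (adjusted p = 0.0151) and median scaling (adjusted p = 0.00195). With scaling to the spike-in probes, which moved the median of all genes to -0.45, Ncoa1 stood at 0.03 and Ncoa2 at -0.16.

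Of the 30 other genes known to rise with glucocorticoid, 9 were called by the F test. Between apex and base, 7 were called higher in the base and 2 higher in the apex, with a list median of -0.08 for apex minus base. The genes called were not all the same: Anxa1 passed the F test but not the apex and base comparison, and Mfsd2a the reverse. Over all genes these shares were 38.6%, 21.6% and 17.6%. Klf9, a transcription factor gene, had mean signals of 2518 ± 251, 2794 ± 180 and 4143 ± 143 (SD, n = 4 each) from apex to base, so that the base was 1.65-fold above the apex (limma adjusted p = 3.6e-05). Its basal arrays all lay above the 8 others. Arrdc2 (1.73-fold, adjusted p = 4.9e-04), Errfi1, a brake on the epidermal growth factor receptor (1.48-fold, adjusted p = 1.1e-04), and the repressor gene Bcl6 (1.32-fold, adjusted p = 3.2e-04) were higher in the base as well. Like Sgk1, these 4 were called between middle turn and base and did not pass between apex and middle turn. They were picked for their small p, and not all called genes of the list had this order: Txnip was 1.69-fold (adjusted p = 2.6e-04) and Fam107a 1.31-fold (adjusted p = 7.0e-04) higher in the apex, both named after their values were seen. Fkbp5 and Tsc22d3, which are induced by the same receptor, had their highest means in the apex but were not called in any comparison. With scaling to the spike-in probes their apex minus base was -0.11 and -0.0983.

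Of 24 genes of sodium channel regulation and sodium transport, 8 were called by the F test, 4 called higher in the base against the apex and 2 higher in the apex, with a list median of 0.01 for apex minus base. Over all genes the shares were 38.6%, 21.6% and 17.6%. The sodium pump subunit gene Atp1b1 was 1.33-fold higher in the base, with mean signals of 21467, 26570 and 28470 from apex to base (limma adjusted p = 1.2e-04), and under quantile normalization apex minus base shrank from -0.41 to -0.14 (adjusted p = 0.0345). Furin, a protease that cleaves channel subunits, was 1.29-fold higher in the base (adjusted p = 8.6e-04). Stk39, a kinase that acts on cation-chloride cotransporters, was 1.24-fold higher in the apex (adjusted p = 0.00119), but stood at -0.11 with scaling to the spike-in probes. Marginal cells of the stria vascularis are rich in the sodium pump, their markers were higher in the base too, and the part of these cells in the values was not tested.

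Of the 22 genes of steroid supply and the corticotropin-releasing hormone axis, 7 had no probe above background, 5 were called by the F test, and 3 of these 5 had turn means 2-fold or more apart, with a list median of -0.08 for apex minus base. Over all genes 38.6% were called and 4.69% were called with means 2-fold apart, and 2076 of 19505 had no probe above background. The receptor gene Crhr1 had signals of 320, 355, 285 and 258 on the apical arrays, 225, 243, 199 and 200.4 on the middle arrays, and 140.2, 125, 98.6 and 107.5 on the basal arrays. No turn overlapped with another, and the apex exceeded the base by 2.59-fold (limma adjusted p = 1.7e-05), and the steroid reductase gene Srd5a1 was 2.16-fold higher in the apex (adjusted p = 1.5e-05). Both calls were kept in each of 14 other settings, but their sizes moved. Crhr1 ran from 0.64 to 1.74 log2 units around its 1.37, lowest with the log2 of the mean signal, and Srd5a1 from 0.69 to 1.21 around 1.11. Crhbp, whose protein binds corticotropin-releasing hormone and keeps it from its receptor, went the other way, with 925, 1084, 1824 and 1194 on the apical arrays, 1747, 1882, 2208 and 2262 on the middle arrays, and 3329, 3469, 3441 and 5404 on the basal arrays. The base was 3.15-fold above the apex (adjusted p = 1.4e-04), and without basal array 4 apex minus base was -1.49 (adjusted p = 3.8e-04). Hair cell and neuron markers were higher in the apex like Crhr1, and fibrocyte markers were higher in the base like Crhbp, and their part was not tested. Cyp11b1, the adrenal enzyme that makes corticosterone, was among the 5 called genes (limma's F test adjusted p = 0.0336) but lay near background. Its mean signal was 10.6, 14.5 and 10.4 in apex, middle turn and base, and 1 of its 8 probes was well above background on all arrays. Cyp11a1, also among the 5, was dim too, at 28.4, 31.2 and 39.7, with 3 of 9 probes well above background on all arrays.

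**Figure D4:**
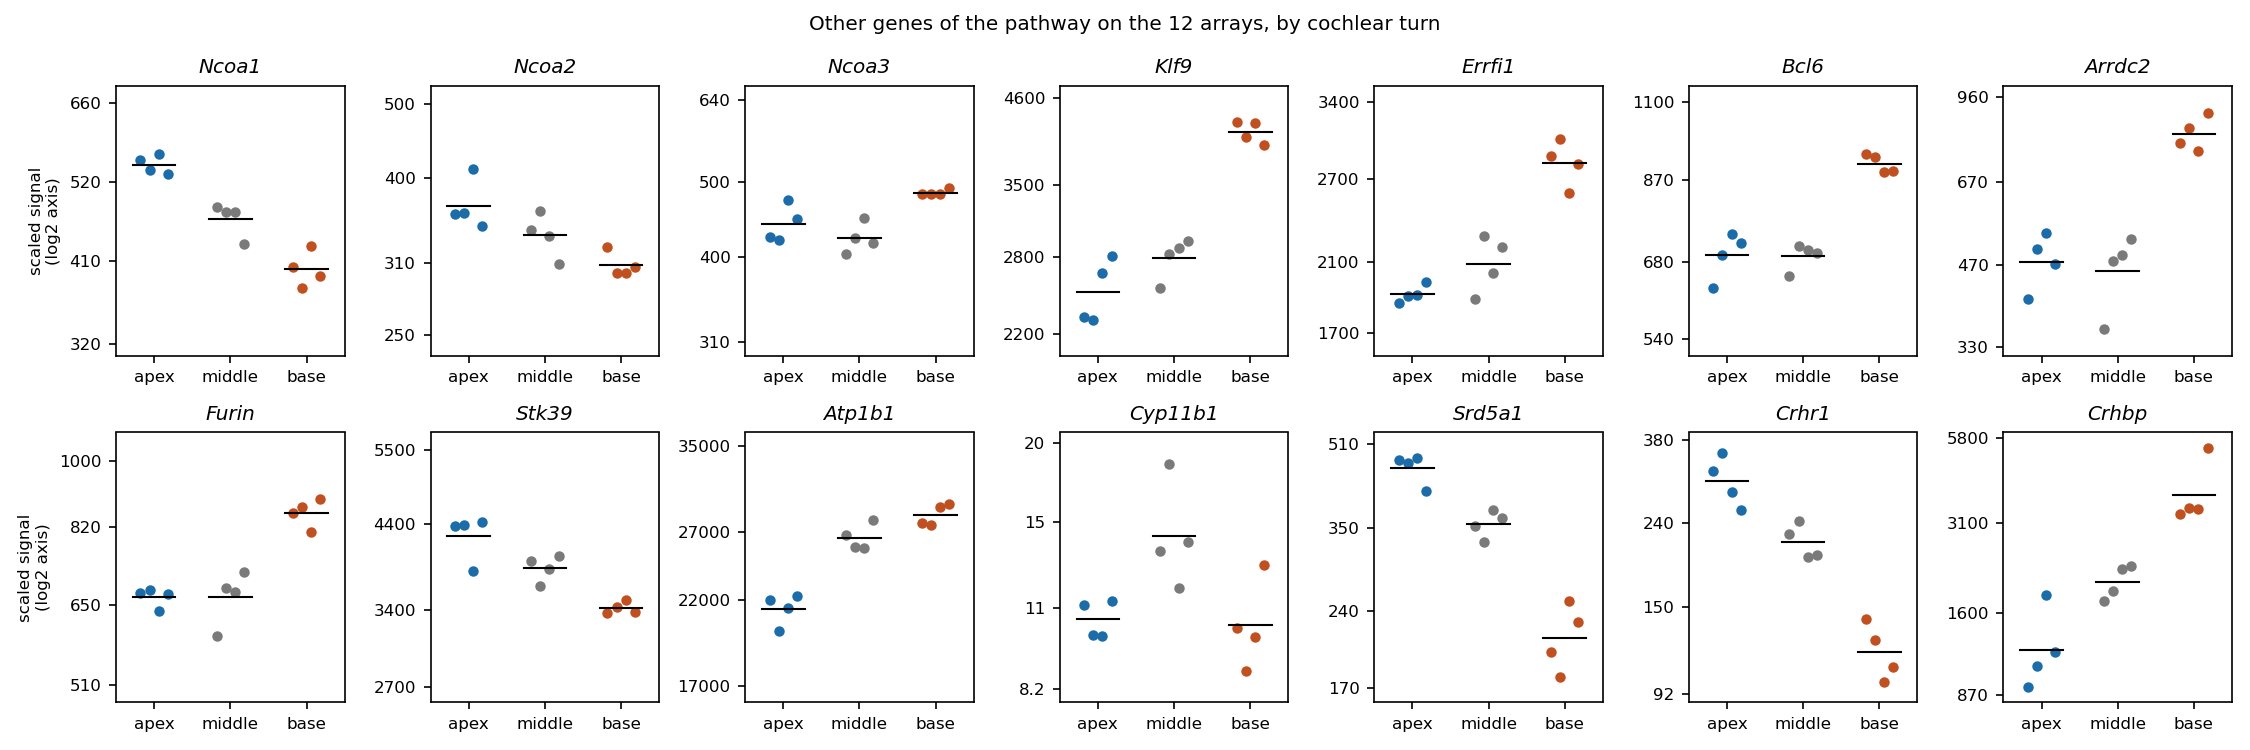
Scaled signal of 14 other pathway genes on every array (points, log2 axis with its own range in each panel) by turn, with the mean log2 signal of the 4 arrays as a line. The basal arrays lie above all others for Klf9, Errfi1, Bcl6, Arrdc2, Furin, Crhbp and Ncoa3, and below all others for Ncoa1, Stk39, Srd5a1 and Crhr1.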

How the data were processed

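Total RNA of 12 samples, 4 per cochlear turn, was measured on Agilent exon arrays. The authors deposited the fluorescence intensity of each spot, extracted from scanned images with Agilent Feature Extraction 10.7.3.1 (version per the file headers), with background subtracted and no scaling between arrays. The deposited value table of the series held the same intensities on all 12 arrays. Probe positions are those of the files (mm9). Turn and sample number came from the labels.

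Of 180880 spots per array, 7914 controls were dropped, as were 622 spots that any array's file marks as uneven, deviating or manually removed, leaving 165865 probes. Intensities were scaled to a 75th percentile of 641.3, log2 transformed and averaged over spots, then over probes of a gene name, with no filter or pseudocount. limma 3.58.1 in R 4.3.3 (lmFit and eBayes) tested the 3 turns over all arrays. The study took all turns from 4 mice and calls the 4 arrays of a turn independent mouse samples. On simulated data the gene test recovered 169 of 200 genes changed by 1 log2 unit, with 9 others, and the probe test 127 of 200, with 5 others. The simulated noise was independent between arrays, with no slide or mouse effect, and few genes were changed. These rates therefore need not hold for the real arrays.

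The genes, lists and tests were chosen with earlier results of these data known. Named were the 10 genes, the 4 genes of each list with the smallest F test p, listed genes called with turn means 2-fold apart, and the 5 genes most like the member with the smallest p. Alternatives were quantile, median and spike-in scaling, normexp (offset 50), 16 added to each signal, only probes above background, marked spots kept, the median of probes, the log2 of the mean signal, the sample number as a block, limma's trend and robust options, the methods' ANOVA, a 2-fold rule, only the arrays compared, and each array left out. Proteins and qPCR were not analysed here, and a few genes that the naming rule picked are not reported here.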

Additional observations from a re-analysis of the deposited data

Results flagged for a closer look

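In groups of 4 arrays, 1 array stood apart from the other 3 in 6 of 78 groups tested over 26 genes, and chance gives such a gap in about 1 in 20 groups. The gap is given as a share of the group's range. For Scnn1b it was 0.98, with basal array 4 at 191 and the others between 132 and 133. Basal array 4 also stood apart for Crhbp, at 5404 against 3329 to 3469 (0.915), and for Ncoa3, at 491.3 against 483 to 483.3 (0.931). For Ncoa1 middle array 4 stood at 431 against 475 to 483 (0.854). For Stk39 apical array 3 stood at 3826 against 4382 to 4430.3 (0.925), and for Srd5a1 apical array 4 stood at 412 against 469 to 481 (0.837).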

How the results depend on the processing

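Hsd11b1 between apex and base, and Nr3c2 and Sgk1 between middle turn and base, kept their calls in all fits run, apart from the 2-fold rule. Over the 10 genes, the F test called 5 under quantile normalization and 6 with spike-in scaling, and the spike-in scaling called 6 between apex and base and 7 between middle turn and base. The single call between apex and middle turn fell to 0 under quantile normalization, median scaling, spike-in scaling, normexp, the median of probes and with only the arrays compared, and the methods' ANOVA at an unadjusted p under 0.05 gave 3. The 2-fold rule left 0 of the 10 genes in every comparison. Of the 91 other genes it left 3 by the F test, 3 for apex minus base, 0 for apex minus middle turn and 0 for middle turn minus base. Spike-in scaling called 63, 71, 21 and 36 of them in that order, and the methods' ANOVA called 23 and 27 in the last pair of comparisons.

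With 1 array left out, the counts for the 10 genes ran from 3 to 5 by the F test, from 2 to 3 for apex minus base, from 0 to 2 for the apex against the middle turn and from 2 to 3 for the middle turn against the base. The highest F test count came without apical array 1 and the 2 calls without basal array 4. Those for the other genes ran from 23 to 33, 20 to 26, 4 to 15 and 12 to 21, the lowest of the third pair coming without apical array 2 (4), apical array 1 (5), middle array 4 (6) and middle array 2 (7). The member probes that departed from their gene ran from 2 to 7, with 2 or 3 without any 1 of the apical arrays, middle array 3 or basal array 4.

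As for the replicate block, same-numbered samples of different turns correlated between -0.04 and 0.23 in their deviations, with 6 of 12 pairs over 0.1. Their mean was 0.0949, and that of the 36 pairs with unlike numbers was -0.0313. Of 12 samples, 4 correlated best with their own number in both other turns. These values lean toward pairing but are weak, and the labels do not state it, so the main fit took the arrays as unpaired. The study took the 3 turns from 4 mice, so arrays of different turns share mice whatever the numbers mark. The main fit leaves out that shared source of spread. Whether the sample numbers match the mice is not known. With the sample number as a block, 8271 in place of 7538 genes passed the F test, and 5 of the 10 members did, Fkbp5 (adjusted p = 0.00518) and Scnn1a (0.0106) being added. Between apex and middle turn, 2 members, Fkbp5 (adjusted p = 0.00957) and Scnn1a (0.0143), and 19 other genes passed, whereas Nr3c2 did not (0.0541). Between apex and base, Fkbp5 (0.0342) and Scnn1a (0.0467) passed and Nr3c2 did not (0.0649).

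Most differences that changed sign were small or came with spike-in scaling, under which apex minus base was -0.31 for Nr3c1, -0.25 for Hsd11b2, -0.11 for Fkbp5, -0.0983 for Tsc22d3, -0.23 for Scnn1a, -0.32 for Scnn1b, -0.16 for Ncoa2, -0.11 for Stk39 and -0.39 for Cyp11b1. There, apex minus middle turn was -0.0496 for Nr3c1, -0.0931 for Sgk1 and -0.0973 for Scnn1g, and middle turn minus base was -0.0477 for Hsd11b2 and -0.22 for Tsc22d3. That scaling moved the median of all genes from -0.04 to -0.45 for apex minus base, and median scaling to -0.15. For apex minus base, median scaling gave -0.0128 for Nr3c1, -0.0202 for Scnn1b and -0.0839 for Cyp11b1, quantile normalization gave -0.0521 for Scnn1b and -0.0551 for Cyp11b1, the median of probes gave -0.0912 and -0.13 for these genes, and the log2 of the mean signal gave -0.0419 for Hsd11b2. For middle turn minus base, Nr3c1 stood at 0.0476 under quantile normalization, 0.0154 with the median of probes and 0.0124 with the log2 of the mean signal, Tsc22d3 at -0.0254 with median scaling and -0.0154 with the median of probes, Hsd11b2 at -0.0410 with the log2 of the mean signal and Scnn1g at 0.0124 with normexp. For apex minus middle turn, Hsd11b2 stood at 0.0183 with 16 added, 0.10 with only probes above background and 0.26 with the median of probes, and Scnn1g at -0.0422 with normexp. With 1 array left out, middle turn minus base ran from -0.0448 to 0.0348 for Nr3c1, from -0.0521 to 0.0923 for Tsc22d3 and from -0.17 to 0.0103 for Scnn1b, and apex minus base from -0.12 to 0.00912 for Scnn1g and from -0.0467 to 0.14 for Cyp11b1.

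With 4 arrays per turn, differences near 0.1 log2 units lie within the spread between replicates. Scnn1g and Cyp11b1 were near background. The causes of these changes were not tested.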
